A study of Mus musculus with 412 samples.

Results

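The cytokine receptors described here are 10 chains, Il6st, Lifr, Osmr, Il31ra, Il4ra, Il10rb, Ifngr1, Tnfrsf1a, Il1r1 and Il1rap, taken by symbol from the 45513 Ensembl genes of the table, and each symbol matched 1 identifier. They were measured in sensory neurons of the mouse colon, which were sequenced 1 neuron at a time from dorsal root ganglia (DRG). All mice carried the strain label C57BL/6J and received the retrograde tracer Fast Blue in the colon wall, so that the neurons projecting there could be found after dissociation and picked by hand with a patch pipette. The groups are the spinal segments. Thoracolumbar (TL) neurons came from T10-L1 ganglia and lumbosacral (LS) neurons from L5-S2 ganglia, cultured apart, with no treatment, and age and sex are not given in the sources used here. Of the labelled neurons, 167 TL and 158 LS neurons were in the table, on 6 library plates, of which plates 2 to 6 held both segments. No animal is named for a neuron, so TL and LS are each 1 sample. No test was made between them, and neurons and plates are not replicates of a segment.

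Cytokine receptors work as assemblies of chains. In the gp130 family the shared chain Il6st pairs with a second chain, such as Lifr for leukaemia inhibitory factor or Osmr for oncostatin M, and signals through Janus kinases and Stat3, whereas Osmr pairs with Il31ra to form the receptor for the itch cytokine interleukin-31. Interleukin-1 needs both Il1r1 and its accessory chain Il1rap, interleukin-4 and interleukin-13 share Il4ra, and the tumour necrosis factor receptor Tnfrsf1a forms trimers of its own. In sensory neurons these receptors are known as a route by which immune cells in inflamed or allergic tissue can change firing, and in the gut they are of interest for the pain and discomfort of inflammation.

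Expression is given as TPM, the deposited log2 value v taken back to 2^v - 1 and rescaled to a sum of 1000000 per neuron, a scale per gene length on which different genes can be set side by side. A receptor was counted as detected at 10 TPM or more. The neurons held a median of 2867071 reads on genes (lowest 416007, highest 12058968) and 13658 genes. TL neurons had a median of 2709639 reads, LS neurons of 3202776.5, and at the median depth 1 read of Tnfrsf1a, the shortest of the 10 transcripts, was worth 0.317 TPM. The 95% intervals beside the shares are exact (Clopper-Pearson) and hold for counting error alone, as PCR reads without molecular identifiers are not independent molecules. The neuronal label held. Tubb3, Snap25, Uchl1, Prph and Stmn2 were at 10 TPM or more in all 325 neurons, and all 9 of 9 neuronal markers had a mean above 10 TPM in both segments.

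Lifr was the most abundant of the 10 receptors and was found in almost every colonic neuron. Lifr (ENSMUSG00000054263, GRCm38 chr15:7090614-7197489, plus strand), the ligand-binding partner of Il6st for leukaemia inhibitory factor, reached 10 TPM in 166 of 167 TL neurons (99.4%, 96.7 to 100.0%) and 155 of 158 LS neurons (98.1%, 94.6 to 99.6%). Its level ran from 3.10 to 392 TPM with a median of 118 in TL and from 0.977 to 320.4 TPM with a median of 127 in LS, and it was above 0 in every neuron. Il6st (ENSMUSG00000021756, GRCm38 chr13:112464070-112510086, plus strand), the signalling chain gp130, was detected in 138 of 167 TL neurons (82.6%, 76.0 to 88.1%) and 123 of 158 LS neurons (77.8%, 70.6 to 84.1%). It ran from 0 to 164 TPM with a median of 45.1 in TL and from 0 to 155 TPM with a median of 22.4 in LS. The segments overlapped over nearly all of their range for both chains. Osmr (ENSMUSG00000022146, GRCm38 chr15:6813577-6874969, minus strand), the oncostatin M chain, reached 10 TPM in a minority, 35 of 167 TL neurons (21.0%, 15.1 to 27.9%) and 54 of 158 LS neurons (34.2%, 26.8 to 42.1%). The shares of Osmr depend on the threshold. At 1 TPM they were 65.3% in TL and 63.9% in LS, a majority of both. At 5 TPM the shares of Osmr were 32.9% and 45.6%, and at 20 TPM 12.6% and 23.4%. Its level ran from 0 to 101 TPM with a median of 1.99 in TL and from 0 to 193 TPM with a median of 3.53 in LS, so that most neurons lay low and a few lay high in each segment. Il31ra (ENSMUSG00000050377, GRCm38 chr13:112519898-112594360, minus strand), the interleukin-31 chain, was rarer still, with 10 of 167 TL neurons (5.99%, 2.91 to 10.7%) and 14 of 158 LS neurons (8.86%, 4.93 to 14.4%). Its median was 0 TPM in TL and 0.0565 in LS, and its highest neuron was at 171 TPM in TL and 42.7 in LS.

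**Figure D1:**
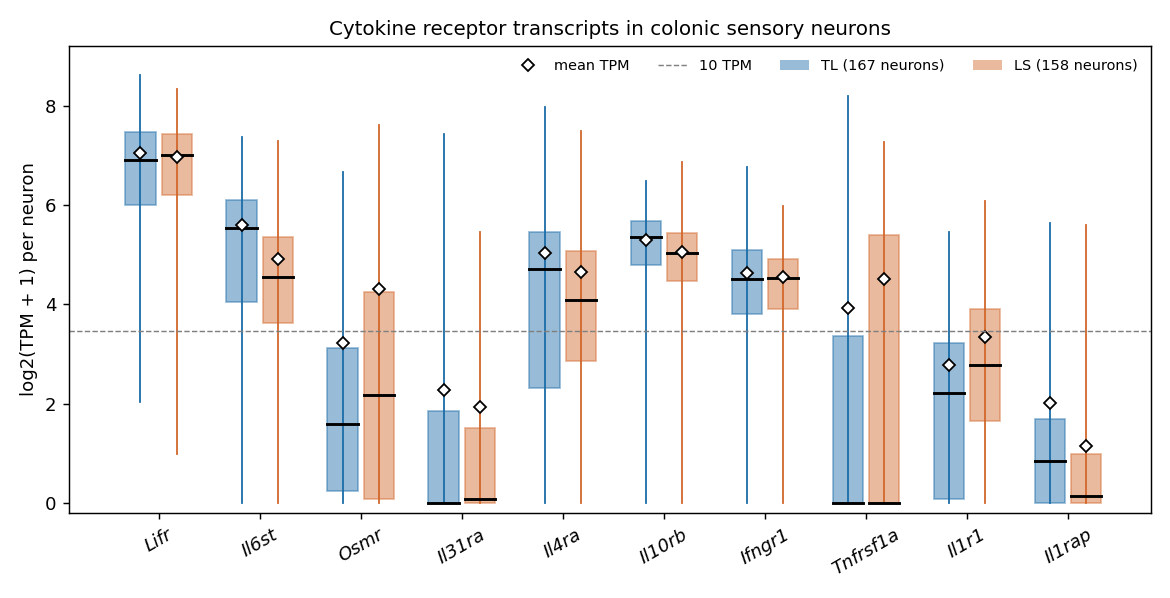
Levels of the 10 receptors in 167 TL and 158 LS neurons on a log2(TPM + 1) axis, with boxes from the lower to the upper quartile, black lines at the median, diamonds at the log2(TPM + 1) of the mean TPM, whiskers from the lowest to the highest neuron and a dashed line at 10 TPM. Lifr had the highest medians (118 TPM in TL and 127 in LS), while the median of Tnfrsf1a was 0 TPM in both segments with neurons up to 291 TPM.

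A further set of receptors was spread widely over the neurons. Il10rb (ENSMUSG00000022969, GRCm38 chr16:91406164-91425834, plus strand), a chain shared by the receptors for interleukin-10, interleukin-22 and the lambda interferons, was detected in 150 of 167 TL neurons (89.8%, 84.2 to 94.0%) and 142 of 158 LS neurons (89.9%, 84.1 to 94.1%). It ran from 0 to 88.3 TPM with a median of 39.8 in TL and from 0 to 116 TPM with a median of 31.7 in LS. Ifngr1 (ENSMUSG00000020009, GRCm38 chr10:19591949-19610229, plus strand), the ligand-binding chain for interferon gamma, was detected in 131 of 167 TL neurons (78.4%, 71.4 to 84.4%) and 132 of 158 LS neurons (83.5%, 76.8 to 89.0%). It ran from 0 to 108 TPM with a median of 21.6 in TL and from 0 to 62.2 TPM with a median of 22.1 in LS, and both receptors overlapped over most of their range between the segments. Il4ra (ENSMUSG00000030748, GRCm38 chr7:125552120-125579474, plus strand), the chain that interleukin-4 and interleukin-13 share, was detected in 110 of 167 TL neurons (65.9%, 58.1 to 73.0%) and 100 of 158 LS neurons (63.3%, 55.3 to 70.8%). Its level ran from 0 to 249 TPM with a median of 25.1 in TL and from 0 to 179.6 TPM with a median of 16.1 in LS, a wider spread than that of Il10rb, with the lower quartile of all neurons at 4.90 TPM.

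The receptors for tumour necrosis factor and interleukin-1 were found in fewer neurons. Tnfrsf1a (ENSMUSG00000030341, GRCm38 chr6:125349362-125362484, plus strand) was detected in 41 of 167 TL neurons (24.6%, 18.2 to 31.8%) and 60 of 158 LS neurons (38.0%, 30.4 to 46.0%). It ran from 0 to 291 TPM with a median of 0 in TL and from 0 to 152 TPM with a median of 0 in LS, and 86 TL and 80 LS neurons were listed at 0, which at this depth is not read as absence. Il1r1 (ENSMUSG00000026072, GRCm38 chr1:40225080-40317257, plus strand), the ligand-binding chain for interleukin-1, was detected in 31 of 167 TL neurons (18.6%, 13.0 to 25.3%) and 50 of 158 LS neurons (31.6%, 24.5 to 39.5%). It ran from 0 to 42.9 TPM with a median of 3.65 in TL and from 0 to 66.7 TPM with a median of 5.86 in LS, which places most neurons below the threshold. The gene model Gm38070 lies on the same strand within it, at a mean of 0.392 TPM, and the strand used in counting is not known here. Il1rap (ENSMUSG00000022514, GRCm38 chr16:26581704-26730117, plus strand), which the interleukin-1 receptor needs to signal, was at 10 TPM or more in the fewest neurons of both segments together, 14 of 325 against 24 for Il31ra. These were 11 of 167 TL neurons (6.59%, 3.33 to 11.5%) and 3 of 158 LS neurons (1.90%, 0.393 to 5.45%), so that in TL alone Il31ra was the rarer. Its medians were 0.793 TPM in TL and 0.0976 in LS, and its highest neurons lay at 48.4 and 47.3 TPM.

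Ordered by mean TPM over all 325 neurons, Lifr (127, SD 76.9), Il6st (38.5, SD 32.3), Il10rb (35.1, SD 19.0), Il4ra (27.9, SD 32.4), Ifngr1 (23.0, SD 16.0) came before Tnfrsf1a (17.8, SD 34.0), Osmr (13.4, SD 26.9), Il1r1 (7.40, SD 8.80), Il31ra (3.31, SD 13.2) and Il1rap (2.13, SD 6.03). Every step in this order but that from Lifr to Il6st was smaller than the SD over neurons of either neighbour. A neuron had a median of 5 of the 10 receptors at 10 TPM or more (lowest 0, highest 9), with the same median in TL and in LS, and 2 neurons had none. Il4ra, Il6st, Lifr, Ifngr1 and Il10rb were all detected in the same neuron in 90 TL neurons (53.9%) and 84 LS neurons (53.2%), nearly the same share of each segment. Shares were much the same at even depth. With every neuron thinned at random to 400000 reads, the share with Osmr was 22.8% in TL and 33.5% in LS against 21.0 and 34.2% before. For Tnfrsf1a the thinned shares were 26.3% and 35.4% against 24.6 and 38.0%, for Il4ra 67.1% and 60.8% against 65.9 and 63.3%, and for Il1r1 18.0% and 36.1% against 18.6 and 31.6%.

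Whether the receptors differ between TL and LS neurons was read from the ratio of mean TPM. A gene was called when its means differed 2-fold or more and every plate from 2 to 6 gave that direction, genes with means below 10 TPM in both segments being left aside. Of the 10 receptors, 7 had such a mean, Il1r1, Il1rap and Il31ra being below it, and 1 of the 7 was called, which was Osmr. Osmr reached a mean of 10 TPM in LS alone. The same rule called 366 of 7752 genes (4.72%), of which 191 were higher in LS (2.46%), so 1 receptor of 7 is a count too small to set the receptors apart from other genes. The receptors had a median log2 ratio of -0.10, against 0.044 over all genes compared.

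Osmr was higher in LS neurons. Its mean was 8.31 TPM in TL (SD 16.6) and 18.7 TPM in LS (SD 33.9), a ratio of 2.25 and a log2 ratio of 1.17. Within plates 2 to 6 the log2 ratio ran from 0.68 to 1.62, with an SD of 0.40, so the direction was the same on all 5 plates. The neurons overlapped widely, with medians of 1.99 and 3.53 TPM, and what set LS apart was the upper part of its range, where the upper quartile was 17.9 TPM against 7.65 in TL. The difference is therefore a difference of means, and the mean of log2(TPM + 1) differed by 0.57. On the deposited scale without rescaling, the log2 ratio was 0.94, with the median of all genes at -0.10 there, and Osmr was not called on either of these scales. Glial carry-over, read from Fabp7, was lower in LS neurons, with a mean of 249 TPM against 443 in TL. Among the 37 TL and 72 LS neurons with Fabp7 below 10 TPM, the means of Osmr were 6.98 and 23.6 TPM, a ratio of 3.39. Of other cells, the macrophage markers had a summed mean of 35.4 TPM in TL and 55.2 in LS, and the fibroblast markers of 64.8 and 271 TPM, nearly all of it Dcn, without which most fibroblast markers had the lower mean in LS. The part of such RNA in the Osmr difference was not tested.

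Over all neurons, no other receptor with a mean of 10 TPM or more differed 2-fold. Il6st had the lower mean in LS, 29.0 against 47.4 TPM (log2 ratio -0.71), and was lower in LS on all 5 plates, from -1.19 to -0.16. Among neurons with Fabp7 below 10 TPM, here called the subset, its log2 ratio was -0.46 and 2 plates were higher in LS, so the plates did not share a direction there. Il4ra had means of 31.7 TPM in TL and 23.9 in LS (log2 -0.41, lower in LS on 5 of 5 plates), but a log2 ratio of -0.075 with 2 plates higher in LS in the subset. Il10rb had means of 38.0 and 32.0 TPM (log2 -0.25, also lower on 5) and the same log2 ratio, -0.25, in the subset. Lifr and Ifngr1 were close to even, with log2 ratios of -0.075 and -0.10 and plates on both sides of 0. In the subset Lifr had -0.039, whereas Ifngr1 had means of 27.5 TPM in TL and 19.4 in LS (log2 -0.50) with 0 plates higher in LS. Tnfrsf1a had means of 14.1 TPM in TL and 21.8 in LS (log2 0.63), but the plates ran from -0.83 to 1.58 and did not share a direction. Below 10 TPM, Il1r1 was higher in LS on all 5 plates (5.80 TPM in TL, 9.09 in LS, log2 0.65), and Il1rap was lower in LS on all 5 (3.02 and 1.20 TPM, log2 -1.33). For Il1rap the log2 ratio was -0.29, with 2 plates higher in LS, in the subset. Il31ra had means of 3.80 and 2.80 TPM, with 2 plates higher and 3 lower in LS, and its TL mean rested in part on the neuron at 171 TPM. In the subset the means of Il31ra were 1.41 TPM in TL and 3.17 in LS, higher in LS on 4 plates, so no direction is given for it.

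**Figure D2:**
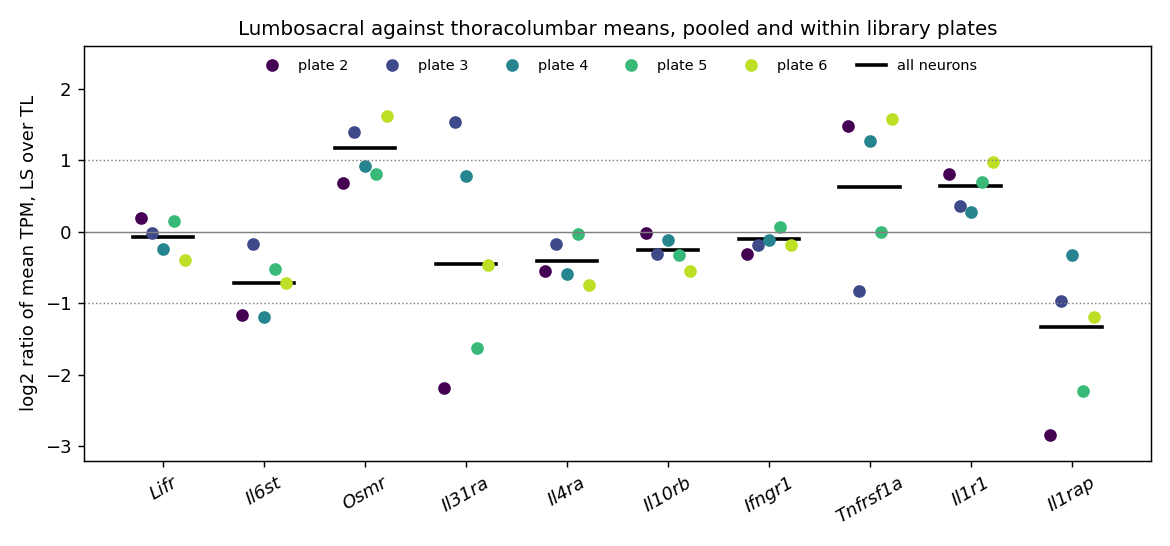
Log2 ratio of mean TPM in LS over TL for each receptor, with black bars for all neurons, dots for plates 2 to 6, and dotted lines at 2-fold either way. All 5 plates lie above 0 for Osmr (0.68 to 1.62) and below 0 for Il6st (-1.19 to -0.16), while those of Tnfrsf1a spread from -0.83 to 1.58.

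Among the genes around these receptors, 1 of 11 other receptor chains with a sufficient mean, of 54 listed, was called higher in LS and 0 lower. It was Ltbr, the lymphotoxin beta receptor, at 7.77 TPM in TL and 23.0 in LS, so that it passed the limit of 10 TPM through LS alone. Of 13 eligible signal carriers out of 26, 2 were higher in LS and 0 lower. These were Jak1, the kinase that the gp130 receptors use, at 84.3 and 186 TPM (log2 1.14), and Socs1, an inhibitor of that kinase, at 38.3 and 76.7 TPM (log2 1.00). Stat3, the carrier downstream of Il6st, was not called, at 109 and 99.6 TPM. Of 21 ligands, 3 had a sufficient mean and 0 were called. The median log2 ratio was 0.038 for the other chains, -0.042 for the carriers and -0.53 for the ligands. Of 14 eligible itch and neuron class genes, 3 were higher in LS (Spp1, Th and Trpv1) and 5 lower (Mrgpra3, Asic3, Nrp1, Trpa1 and P2rx3). The itch receptor Mrgpra3 was at a mean of 23.7 TPM in TL and 0.149 in LS, so it did not share the direction of Osmr. Its log2 ratio varied widely between plates, from -9.97 to -0.17.

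The receptors were also compared between neuron classes. Neurons with the artemin receptor Gfra3 at 10 TPM or more and the mechanosensitive channel Piezo2 below 10 are called Gfra3 neurons (82 TL, 76 LS), and the reverse Piezo2 neurons (55 TL, 65 LS). Both genes were detected in 18 TL and 7 LS neurons and neither in 12 and 10. A gene was called when the means of the classes differed 2-fold or more in the same direction in TL and in LS, provided that a class of each segment had a mean of 10 TPM or more. Of the 7 eligible receptors, 1 was higher in Gfra3 neurons, Il4ra, and 1 in Piezo2 neurons, Tnfrsf1a. Over all genes the rule called 412 of 7366 (5.59%), 180 of them higher in Gfra3 neurons (2.44%) and 232 in Piezo2 neurons (3.15%). The median log2 ratio, as the mean of both segments, was 0.38 for the receptors and -0.025 for all genes compared.

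Il4ra was higher in Gfra3 neurons. In TL it ran from 0 to 249 TPM with a median of 34.9 in Gfra3 neurons and from 0 to 179 TPM with a median of 9.32 in Piezo2 neurons. In LS it ran from 0 to 179.6 TPM with a median of 24.8 in Gfra3 neurons and from 0 to 107 TPM with a median of 7.68 in Piezo2 neurons. The classes overlapped over most of their range in both segments, and both ends of the middle range differed. The lower quartile was 17.5 TPM in Gfra3 and 1.36 in Piezo2 neurons of TL and 15.7 and 1.81 in LS, the upper quartile 57.0 and 29.0 TPM in TL and 44.3 and 15.9 in LS. Il4ra was detected in 68 of 82 (82.9%, 73.0 to 90.3%) Gfra3 and 27 of 55 (49.1%, 35.4 to 62.9%) Piezo2 neurons of TL, and in 64 of 76 (84.2%, 74.0 to 91.6%) and 27 of 65 (41.5%, 29.4 to 54.4%) of LS. The means were 41.1 and 19.9 TPM in TL, a ratio of 2.06, and 33.5 and 13.6 TPM in LS, a ratio of 2.46. Gfra3 neurons had the higher mean on 5 of 5 plates in TL (log2 0.027 to 1.57) and on 5 of 5 in LS (log2 0.32 to 2.19). Without plate 6 the log2 ratio in TL was 0.89, just under 2-fold, and Il4ra was then not called. Among neurons with Fabp7 below 10 TPM the ratio was 3.25 in TL (15 Gfra3 and 17 Piezo2 neurons) and 1.94 in LS (39 and 23), again short of the call in LS.

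Tnfrsf1a lay in the opposite direction. In LS it ran from 0 to 152 TPM with a median of 47.9 in Piezo2 neurons and from 0 to 34.2 TPM with a median of 0 in Gfra3 neurons, and was detected in 50 of 65 (76.9%, 64.8 to 86.5%) and 3 of 76 (3.95%, 0.822 to 11.1%). Its means there were 46.2 and 1.31 TPM, a ratio of 35.2, and Piezo2 neurons were higher on all 5 plates. Thus few LS Gfra3 neurons and most LS Piezo2 neurons had the tumour necrosis factor receptor at 10 TPM or more. In TL it ran from 0 to 291 TPM with a median of 0.736 in Piezo2 neurons and from 0 to 122 TPM with a median of 0 in Gfra3 neurons, detected in 22 of 55 (40.0%, 27.0 to 54.1%) and 10 of 82 (12.2%, 6.01 to 21.3%). The means were 22.6 and 6.25 TPM, a ratio of 3.62. The part of glial RNA in the TL difference was not tested. Mean Fabp7 was 542 TPM in Gfra3 and 187 TPM in Piezo2 neurons of TL. Among neurons with Fabp7 below 10 TPM, the TL means were 1.19 TPM in 17 Piezo2 neurons and 0.943 TPM in 15 Gfra3 neurons, whereas the LS means were 44.3 TPM in 23 and 1.01 TPM in 39, a ratio of 43.8. There the LS means still differed, but Tnfrsf1a did not pass 2-fold in TL and was not called. On the deposited scale without rescaling, where the median of all genes was 0.43, the log2 ratio of Gfra3 over Piezo2 neurons was -0.57 in TL and -4.50 in LS, so the TL difference also fell short of the call on that scale.

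**Figure D3:**
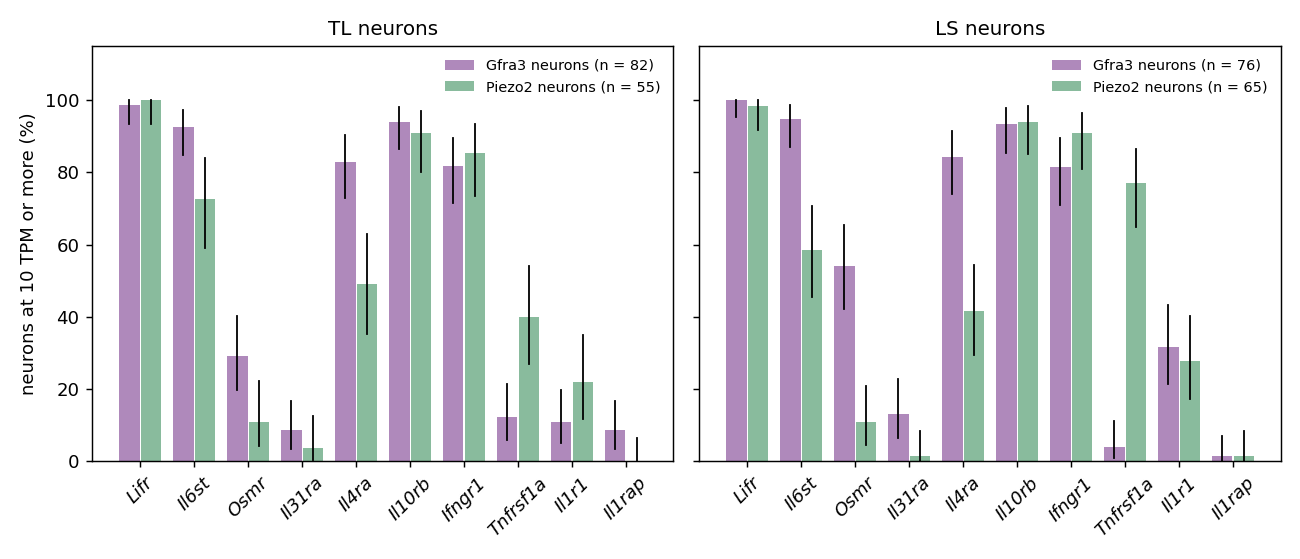
Share of neurons with each receptor at 10 TPM or more in Gfra3 and Piezo2 neurons of TL and LS, in percent, with exact 95% intervals. Il4ra and Il6st are higher in Gfra3 neurons of both segments, and Tnfrsf1a is at 76.9% in LS Piezo2 neurons against 3.95% in LS Gfra3 neurons.

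Osmr passed 2-fold between the classes in LS alone. In LS it ran from 0 to 193 TPM with a median of 11.1 in Gfra3 neurons and from 0 to 116 TPM with a median of 0.408 in Piezo2 neurons, with 41 of 76 (53.9%, 42.1 to 65.5%) and 7 of 65 (10.8%, 4.44 to 20.9%) detected and means of 27.5 and 6.66 TPM. In TL the means were 10.2 and 7.12 TPM, a ratio of 1.43 (log2 0.51, and 1.00 without plate 6, when Osmr was called), with 24 of 82 (29.3%, 19.7 to 40.4%) and 6 of 55 (10.9%, 4.11 to 22.2%) detected. The segments were then compared within each class. Within Gfra3 neurons the mean of Osmr was 2.71 times as high in LS as in TL, higher on all 5 plates, whereas within Piezo2 neurons the ratio was 0.935, with log2 ratios from -3.05 to 3.76 over the plates. Neurons with both genes had Osmr means of 5.88 TPM in TL (n = 18) and 50.7 in LS (n = 7). Whether the ratios differ between the classes was not tested. The classes also differ in make-up between the segments. Ntm had a mean of 0.205 TPM in TL and 16.2 in LS Gfra3 neurons, and Spp1 a mean of 7.78 TPM in TL and 1826 in LS Piezo2 neurons, so a segment difference within a class and a difference of subtypes cannot be told apart. For Tnfrsf1a, the mean within Gfra3 neurons was 6.25 TPM in TL and 1.31 in LS, lower on all 5 plates, but 0.943 and 1.01 TPM in those with Fabp7 below 10 TPM. Within Piezo2 neurons it was 22.6 and 46.2 TPM, higher on 4 of 5. Il6st had means of 40.8 TPM in TL and 20.3 in LS Piezo2 neurons (log2 -1.01), lower in LS on 4 of 5 plates. The detection of Fabp7 differed as well, with 67 of 82 (81.7%, 71.6 to 89.4%) of TL and 37 of 76 (48.7%, 37.0 to 60.4%) of LS Gfra3 neurons, so the Gfra3 values of Tnfrsf1a are not read as a difference between the segments.

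The gp130 chains were less divided. Il6st was detected in 76 of 82 (92.7%, 84.8 to 97.3%) Gfra3 and 40 of 55 (72.7%, 59.0 to 83.9%) Piezo2 neurons of TL and in 72 of 76 (94.7%, 87.1 to 98.5%) and 38 of 65 (58.5%, 45.6 to 70.6%) of LS, with ratios of means of 1.29 and 1.78. Its ratios were 2.17 and 2.39 in neurons with Fabp7 below 10 TPM, where it was the only receptor called. Lifr had means of 125 TPM in Gfra3 and 149 in Piezo2 neurons of TL, and 153 and 100.3 TPM in LS, where Gfra3 neurons were higher on all 5 plates. On the TL plates Gfra3 neurons were higher on 2 and lower on 3, and among neurons with Fabp7 below 10 TPM they had the higher mean Lifr in both segments (145 against 115 TPM in TL, 142 against 104 in LS), so no direction is given for Lifr in TL. Il10rb had ratios of 1.11 in TL and 1.53 in LS, and Ifngr1 was nearly even, with means from 20.1 to 26.8 TPM over the classes of both segments. Il31ra was detected in 7 Gfra3 and 2 Piezo2 neurons of TL and in 10 and 1 of LS, so most neurons with the interleukin-31 chain were Gfra3 neurons. Il1r1 was highest in the neurons with both genes, at a mean of 13.2 TPM in TL and 17.8 in LS, with 9 of 18 (50.0%, 26.0 to 74.0%) and 5 of 7 (71.4%, 29.0 to 96.3%) detected. It was at 4.85 and 5.47 TPM in Gfra3 and Piezo2 neurons of TL and at 8.89 and 8.80 in LS. Neurons with neither gene had few receptors, with medians of 2.5 (TL) and 3 (LS), and Lifr means of 38.9 and 44.4 TPM. They also had the highest mean Fabp7, 1078 and 898 TPM, and the fewest genes, a median of 9199.5 and 9569.5. Their part in the low receptor count was not tested.

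Of the other receptor chains, 1 of 9 eligible was called higher in Gfra3 neurons and 0 in Piezo2 neurons. It was Il13ra1, which joins Il4ra in the receptor for interleukin-13, with means of 25.6 and 9.47 TPM in TL and 38.7 and 6.16 TPM in LS, so both chains of that receptor were higher in the same class. None of 13 eligible signal carriers was called (0 higher, 0 lower), and 1 of 2 eligible ligands was, Il6, with 21.9 and 7.63 TPM in TL and 18.7 and 4.47 TPM in LS. The median log2 ratio was -0.019 for the other chains, 0.32 for the carriers and 0.83 for the ligands. Of 12 itch and neuron class genes, 5 were higher in Gfra3 neurons (Trpa1, Trpv1, Tac1, Th and Calca) and 5 in Piezo2 neurons (Mrgprd, Asic3, S100b, Nefh and P2rx3). Il4ra thus shared its class with the ion channels Trpv1 and Trpa1, and Tnfrsf1a its class with the neurofilament Nefh.

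The pairs of chains that form known complexes were counted in single neurons, beside the count that the product of the separate shares gives. Neurons share plate and depth, and no test was made. Il6st and Lifr, the pair for leukaemia inhibitory factor, were both detected in 260 of 325 neurons (80.0%, 75.2 to 84.2%), against 258 from the product. Almost every neuron with Osmr also had Il6st, 87 of 89 (97.8%), against 71.5 from the product. At 10 TPM the full oncostatin M pair was therefore limited by Osmr, and together with Lifr it was found in 35 TL neurons (21.0%) and 51 LS neurons (32.3%). Il31ra and Osmr, the pair for interleukin-31, were both detected in 17 of 325 neurons (5.23%, 3.08 to 8.24%), which was 17 of 24 neurons with Il31ra against 6.57 from the product. Within Gfra3 neurons the counts were nearer to the product, with 4 against 2.05 in TL and 8 against 5.39 in LS. In Piezo2 neurons they were 2 against 0.218 in TL and 0 against 0.108 in LS. For Il6st and Osmr they were 24 against 22.2 in TL and 40 against 38.8 in LS Gfra3 neurons. Il4ra and Il13ra1 were both detected in 144 of 325 neurons (44.3%, 38.8 to 49.9%), 89.4% of the neurons with Il13ra1, against 104 from the product. Within Gfra3 neurons the counts were close to the product, 56 against 48.9 in TL and 55 against 53.1 in LS. Within Piezo2 neurons they were 8 against 4.91 and 11 against 5.82. Ifngr1 and Ifngr2, the chains for interferon gamma, met in 258 of 325 neurons (79.4%, 74.6 to 83.7%), against 258 from the product. Il6st and Cntfr, the binding chain for ciliary neurotrophic factor, met in 155 of 325 neurons (47.7%, 42.2 to 53.3%), against 139.7.

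In other pairs a chain was rarely at 10 TPM or more. Il1r1 and Il1rap were both at 10 TPM or more in 1 of 325 neurons (0.308%, 0.00779 to 1.70%), with 3.49 from the product. The binding chain of the interleukin-1 receptor reached the threshold in 81 neurons and the accessory chain in 14, so the count of both rests on few neurons. Il1rap nonetheless gave at least 1 read in 193 neurons, and low levels of it are not read as absence. At a threshold of 1 TPM, Il1rap was in 42.5% of TL and 25.3% of LS neurons, and Il1r1 in 69.5% and 82.3%. Il10rb met Il10ra, the binding chain for interleukin-10, in 2 of 325 neurons (0.615%, 0.0746 to 2.21%), since Il10ra was detected in 2 neurons, both TL. Il6st met Il6ra, the binding chain for interleukin-6, in 2 of 325 neurons (0.615%, 0.0746 to 2.21%), since Il6ra was detected in 3 neurons, all TL. In LS neither of these chains reached 10 TPM, and 0 of 158 allows a share of up to 2.31%. In most neurons the widely spread chains Il10rb and Il6st were thus without these binding partners at 10 TPM. Whether such neurons respond to interleukin-10 or interleukin-6 was not tested.

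Levels across the 325 neurons were compared by Spearman's rho of TPM, as a description. The neurons share plates, and depth bears on rho at low levels. Over the 45 pairs of receptors the median rho was 0.193, with 38 above 0 and 7 below. The 36 pairs of receptors at 10 TPM or more in at least 5% of neurons had a median of 0.210, against 0.0615 over all pairs of 11885 genes that pass the same limit. Il4ra, Il6st, Lifr and Il10rb formed a group, with all 6 rhos between 0.447 (Il4ra and Il10rb) and 0.604 (Il4ra and Il6st). All stayed above 0 within the segments, where Il4ra and Il6st had 0.605 in TL and 0.587 in LS, Il4ra and Lifr 0.519 and 0.699, Lifr and Il10rb 0.596 and 0.452, and Il6st and Il10rb 0.517 and 0.393. Within classes they were lower in Gfra3 neurons, 0.206 for Il4ra and Il6st and 0.297 for Il6st and Lifr, than in Piezo2 neurons, 0.659 and 0.739. For Il4ra and Lifr they were closer, at 0.450 in Gfra3 and 0.533 in Piezo2 neurons. The pairs thus varied together in both classes, and less so in Gfra3 neurons, a difference that was not tested. Osmr had its highest rho with Il6st, its signalling partner, at 0.514 over all neurons, 0.176 within Gfra3 and 0.619 within Piezo2 neurons. Tnfrsf1a had rhos below 0 with this group over all neurons, at -0.303 with Il4ra, -0.289 with Il6st, -0.270 with Lifr and -0.265 with Il10rb. Within Gfra3 neurons the same rhos were -0.0917, 0.0672, -0.149 and -0.0450, and within Piezo2 neurons -0.165, -0.332, -0.263 and -0.285. In LS the rho of Tnfrsf1a and Il6st was -0.514, in TL -0.123. Its rho was -0.457 with Gfra3 and 0.424 with Piezo2, against 0.513 and -0.297 for Il4ra. The chains of the interleukin-1 receptor, Il1r1 and Il1rap, had a rho of -0.0118 with each other. Il1r1 had its highest rho with Lifr (0.279), as did Ifngr1 (0.248), and Il1rap had its highest with Tnfrsf1a (0.244). The number of genes detected, a measure of RNA content and depth, had its highest rho with Il1r1 (0.390) and Ifngr1 (0.363), and 0.346 with Lifr. With the summed neuronal markers the rho was 0.482 for Il4ra, 0.503 for Il6st, 0.456 for Lifr and 0.399 for Il10rb. The part of shared neuronal RNA content in the rhos of that group was not tested.

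**Figure D4:**
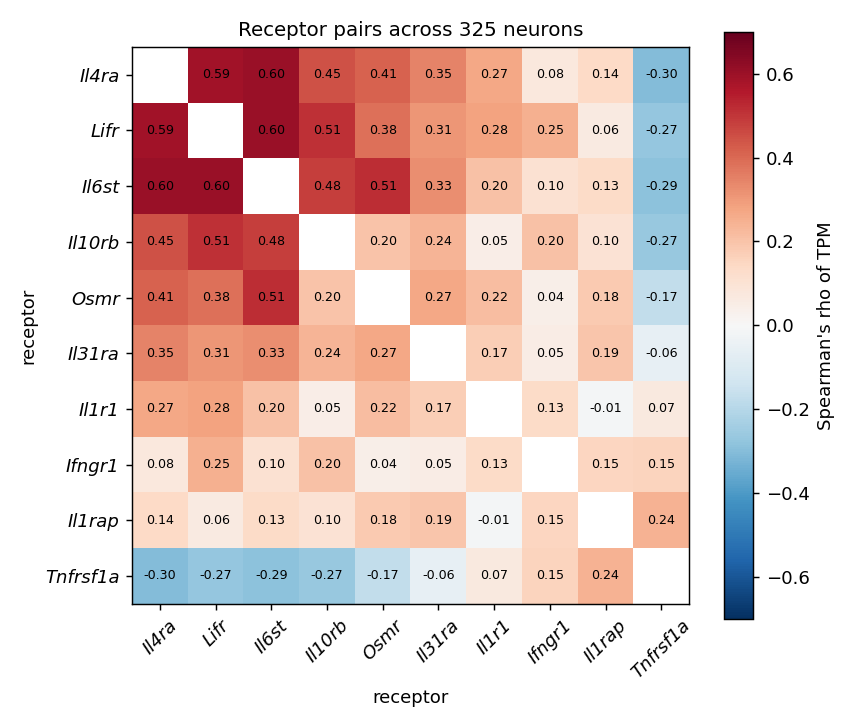
Spearman's rho of TPM over 325 neurons for each pair of receptors, red above and blue below 0. Il4ra, Lifr, Il6st and Il10rb form a block from 0.447 to 0.604, and the bottom row shows Tnfrsf1a down to -0.303 with Il4ra.

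The 3 genes most like each receptor were found among 11885 genes by the same rho, for receptors at 10 TPM or more in at least 10% of neurons. Lifr was most like Stat3 (0.706), Cds2 (0.703) and Gcnt2 (0.697), and Il4ra most like Cyfip2 (0.682), Atp1b3 (0.674) and Stat3 (0.671). The signal carrier Stat3 thus stood among the closest genes to both of these receptors. It had means of 109 TPM in TL and 99.6 in LS. Il6st was most like Osbpl3 (0.694), Pirt (0.692) and Ctsl (0.690), Pirt being a membrane protein of sensory neurons that binds Trpv1. Il10rb was most like Ctsl (0.631), Cd55 (0.589) and Gnal (0.572). For Osmr the closest were Cd44 (0.544), Cd9 (0.533) and Il6st (0.514), so that of all genes compared Osmr had its signalling partner among its closest 3. Tnfrsf1a was most like Fcgrt (0.593), Fermt2 (0.570) and Cdk17 (0.568), and Il1r1 most like Cacna1e (0.564), Rtn1 (0.556) and Ache (0.548), a calcium channel gene, a reticulon and acetylcholinesterase. Ifngr1 had the weakest of these links, with Tmx2 (0.440), mt-Co1 (0.439) and mt-Cytb (0.426), and its rho with the number of genes detected was 0.363.

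Satellite glia wrap DRG neurons and can leave RNA behind, and Fabp7, a fatty acid binding protein of those cells, was used to check the receptors. Fabp7 was at 10 TPM or more in 130 of 167 TL neurons (77.8%, 70.8 to 83.9%) and 86 of 158 LS neurons (54.4%, 46.3 to 62.4%). The mean of 4 receptors was higher in neurons with Fabp7 at 10 TPM or more in both segments (Il1rap, Il6st, Lifr and Tnfrsf1a), that of 1 was lower in both (Il10rb), and for 5 the direction was not the same in TL and LS. Over the 7751 genes with a mean of 10 TPM or more in a segment, Fabp7 aside, 33.9% were higher in both and 25.8% lower in both, against 3 and 1 of the 7 receptors with such a mean. With the neurons split at 1 TPM of Fabp7 instead, 9 receptors were higher in both segments, Il10rb among them, so no direction is given for Il10rb. Il1rap followed Fabp7 most closely. Its mean was 3.73 TPM in the 130 TL neurons with Fabp7 and 0.514 in the 37 without, and 1.85 TPM in the 86 LS neurons with Fabp7 and 0.419 in the 72 without. All 14 neurons with Il1rap at 10 TPM or more also had Fabp7, and below 10 TPM of Fabp7 it was detected in 0 of 37 TL and 0 of 72 LS neurons, which allow up to 9.49 and 4.99%. Its rho was 0.392 with Fabp7 and 0.440 with the summed glial markers, the highest of the 10 receptors. Il1rap of the neurons and Il1rap of glial RNA therefore cannot be told apart here. Tnfrsf1a came next. Its mean was 17.4 TPM in the 130 TL neurons with Fabp7 and 2.49 in the 37 without, and 26.5 TPM in the 86 LS neurons with Fabp7 and 16.1 in the 72 without. In LS it was still detected in 21 of the neurons without Fabp7 (29.2%), in TL in 3 (8.11%). Il6st in TL had means of 50.7 and 36.0 TPM with and without Fabp7, and in LS 31.3 and 26.1. Lifr, Il4ra, Il10rb and Ifngr1 kept means within 1.28 times either way.

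Without the neurons that had Fabp7, more receptors were called between the segments. Among 37 TL and 72 LS neurons, 3 of 8 eligible receptors were 2-fold higher in LS with all plates in that direction, while the rule then called 4.16% of genes in either direction. Besides Osmr they were Tnfrsf1a, at 2.49 TPM in TL and 16.1 in LS, and Il1r1, at 3.82 and 10.2 TPM. Tnfrsf1a and Il1r1 had the higher mean in LS over all neurons too, without reaching the call. In the subset all 3 reached a mean of 10 TPM in LS alone, and the count is not read as a result about the receptors. The share of neurons in each class also differs in this subset, with 15 Gfra3 and 17 Piezo2 neurons in TL and 39 and 23 in LS. On plate 3, 20 of the 22 TL neurons had Fabp7 at 10 TPM or more, so few TL neurons stand for that plate here.

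Wider marker lists were read in the same way. Of 10 satellite glia markers, 9 had a mean of at least 10 TPM in TL and 7 in LS, none was at 0, and the summed mean was 6727 TPM in TL and 3128 in LS, with Apoe the most abundant (5851 and 2674 TPM). Macrophage RNA, another source of cytokine receptors, was low. Of 10 macrophage markers 1 had a mean of at least 10 TPM in each segment, C1qb (26.4 TPM in TL, 46.4 in LS), and C1qc and Tyrobp were at 0 in every TL neuron. C1qa was at 0.0903 and 0.106 TPM and Ptprc at 0.0245 and 0.0132 TPM, and the summed means were 35.4 and 55.2 TPM. Endothelial markers summed to a mean of 139 TPM in TL and 2.92 in LS, but the TL median was 0.859 TPM and 1 TL neuron had all 8 markers at 10 TPM or more, with a sum of 22553 TPM and Cldn5 the most abundant. Fibroblast markers summed to 64.8 and 271 TPM, nearly all of it Dcn, with medians of 12.5 and 11.2 TPM, and mural markers to 21.3 and 18.9 TPM, with Rgs5 the most abundant. The neuronal list summed to 32359 and 32779.5 TPM, with Calca the most abundant. Of the receptors, Il4ra had the highest rho with the summed fibroblast markers (0.360). Osmr had 0.302 with them and 0.262 with the summed macrophage markers, with which Il4ra had 0.305. The part of such RNA in the levels of either receptor was not tested.

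Since Il6st and Lifr varied together and Il31ra met Osmr in the same neurons, the 250 bases before an annotated start of Il6st, Lifr and Il31ra are shown. RefSeq (GRCm38.p6) gave 11 promoters for 9 of the 10 receptors, Il10rb being the other. The windows were searched on both strands for the letters CCAAT, for GGGCGG, for TATAAA and for TTCNNNGAA, the last a form that Stat proteins are known to bind. CCAAT was found in 5 of 11 receptor promoters and in 33.8% of all 32851 promoters, GGGCGG in 7 and 32.7%, TATAAA in 0 and 12.4%, and TTCNNNGAA in 2, those of Il31ra and Tnfrsf1a, and 7.02%. The Il6st window lies at chr13:112463820-112464069 on the plus strand, just before the gene, and its GC content is 66.0%, against a median of 52.4% over all promoters. That of Lifr, the downstream of its 2 starts, lies at chr15:7140292-7140541 on the plus strand (50.8% GC) and that of Il31ra at chr13:112580663-112580912 on the minus strand (42.0% GC), both within the span of their gene and between its exons. The window of the other Lifr start, not shown, has 82.4% GC, 0 CCAAT and 2 GGGCGG. None of the 3 windows shown holds an exon of its gene in GENCODE M21. Capitals mark the letters found, 2 CCAAT and 1 GGGCGG (as CCGCCC, its opposite strand) for Il6st, 1 CCAAT for Lifr and 1 TTCNNNGAA for Il31ra. A match describes the letters and is neither a bound site nor a cause of the levels.
Il6st: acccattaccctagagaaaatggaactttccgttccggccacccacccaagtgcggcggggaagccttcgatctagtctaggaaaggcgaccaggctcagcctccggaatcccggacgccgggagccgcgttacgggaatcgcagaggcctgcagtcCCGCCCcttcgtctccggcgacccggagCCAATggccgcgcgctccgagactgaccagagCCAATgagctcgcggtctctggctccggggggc
Lifr: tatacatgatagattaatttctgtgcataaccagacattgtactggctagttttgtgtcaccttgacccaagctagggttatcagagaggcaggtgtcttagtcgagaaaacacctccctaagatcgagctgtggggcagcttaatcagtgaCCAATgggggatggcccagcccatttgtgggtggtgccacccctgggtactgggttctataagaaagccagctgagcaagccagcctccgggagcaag
Il31ra: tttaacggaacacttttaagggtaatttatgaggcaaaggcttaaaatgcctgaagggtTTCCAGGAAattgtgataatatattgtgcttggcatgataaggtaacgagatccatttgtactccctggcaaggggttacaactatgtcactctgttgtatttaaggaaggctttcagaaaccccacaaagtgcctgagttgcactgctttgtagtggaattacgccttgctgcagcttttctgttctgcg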

How the data were processed

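Values were deposited as log2(x + 1), with x proportional to reads over gene length by a normalisation of the authors whose details were not read here. Upstream, their notes name bcl2fastq 2.15.0.4, STAR 2.4.1 (GRCm38.p3) and featureCounts 1.4.4. Here 2^value - 1 was rescaled to 1000000 per neuron. Reads per neuron were recovered as the smallest whole numbers that fit the values (relative tolerance 1e-09), with gene lengths from the annotation for 26057 genes and from the values for 8712, and were thinned to 400000 (seed 1). The 74 further labelled neurons and 13 bath controls were not analysed here.

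The members and lists were chosen with earlier results of these data known. Named are the 10 receptors, Gfra3, Piezo2 and Fabp7, partner chains, called genes of the lists, and for each receptor the 3 genes with the highest rho, and Stat3, Mrgpra3, Ntm, Spp1 in Piezo2 neurons and the overlapping gene model were named after their values were seen. Alternatives changed the scale, threshold, kind of mean, plates or neurons, including a filter of 3 median absolute deviations that left out 57 neurons and kept 268. No doublet caller was run. The steps were tested on simulated data. Python 3.11.15, numpy 2.4.6, pandas 2.3.3, scipy 1.17.1 and matplotlib 3.10.9 were used.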

Additional observations from a re-analysis of the deposited data

How the results depend on the processing

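The median of the receptors' shares over all neurons was 47.8% at 10 TPM, 78.6% at 1 TPM, 60.2% at 5, 36.9% at 20 and 11.5% at 50 TPM, and 64.3% with reads not divided by gene length (CPM), so a share holds for its threshold and scale. Between segments, 1 receptor was called (Osmr). The count was 2 with CPM and 2 with means from 1 TPM (Il1rap and Osmr), 2 at 1.5-fold (Il6st and Osmr), 3 with Fabp7 below 10 TPM (Il1r1, Osmr and Tnfrsf1a), and 0 without rescaling, 0 with the mean of log2(TPM + 1) and 0 with that of log2(TPM + 0.1). Osmr was called with each plate left out in turn. Between classes, 2 receptors were called (Il4ra and Tnfrsf1a), but 1 with Fabp7 below 10 TPM (Il6st) and 3 with the mean of log2(TPM + 0.1) (Il4ra, Osmr and Tnfrsf1a). Without rescaling, and by the mean of within-plate log2 ratios, which gave no LS value for Tnfrsf1a, the called receptors were Il4ra and Osmr, without plate 6 Osmr and Tnfrsf1a. On the 4 LS plates with a ratio for Tnfrsf1a, its log2 ratio of Gfra3 over Piezo2 neurons ran from -7.23 to -4.29. The median log2 ratio of the 10 receptors between classes was 0.44, against 0.96 without rescaling, 0.26 with log2(TPM + 1) and 0.29 with log2(TPM + 0.1). The number of receptors higher with Fabp7 in both segments was 4, and 9 with Fabp7 at 1 TPM, where Il10rb was among them. It was 3 at 50 TPM, 4 at 100 TPM and 6 with the summed satellite glia list. The causes were not tested. The median rho of the receptors was 0.193, and 0.190 to 0.226 under its alternatives. Leaving out the highest neuron of each receptor, chosen after seeing the data, left the count of called receptors between segments at 1 and between classes at 2.

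TL and LS are each 1 sample, so differences between animals or cultures and differences between segments cannot be told apart. No paired analysis was possible because no animal is named for a neuron. RNA from glia differed between the segments and classes. Depth limits the receptors with few or 0 reads in the median neuron, Il1rap, Il31ra and Tnfrsf1a, for which a value of 0 is not absence. The levels are of mRNA in dissociated neurons, not of receptor protein on endings in the colon, and neurons were chosen by tracer and by hand.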
